A study of Homo sapiens with 4 samples.

Results

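The FLI1 peak list of the Ewing sarcoma cell line SK-N-MC is described here across all protein-coding genes. Every unique interval on chromosomes 1 to 22 and X (hg19) was taken, with lines that repeat an interval as further summits counted once. This gave 36305 peaks, of 93355 in the 3 deposited lists of the study, which also profiled SSRP1 (19855 peaks) and acetylated lysine 27 of histone H3 (H3K27ac, 37195 peaks) by ChIP-seq. All cells were untreated as far as the labels say, each target had 1 library, and peaks were called by the authors against 1 input library. There was no replicate, so no p-value is given, and the 95% exact binomial (Clopper-Pearson) intervals printed after shares cover counting error only.

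In Ewing sarcoma, EWSR1 is fused to a gene of the ETS family, most often FLI1. The ETS DNA-binding domain recognises a GGAA core, which ordinary ETS factors occupy as a single site, often at promoters. EWS-FLI1 also binds long runs of GGAA, from which it can open chromatin and set up an enhancer. The labels do not state whether the antibody separates the fusion from unfused FLI1, and the list was read as FLI1 signal of either kind.

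The first sequences are shown because they are the kind of site that sets EWS-FLI1 apart: the longest GGAA run in the FLI1 peaks around 6 of the 32 listed targets, printed from hg19 with 20 bases on each side and the unbroken run in capitals. They lie at chr11:69436903-69437002 (plus strand, 15 repeats), chr19:50014744-50014831 (plus, 12), chr15:78031073-78031176 (plus, 16), chr1:38528323-38528410 (minus, 12), chr3:42308309-42308400 (minus, 13) and chr7:89837708-89837815 (plus, 17). Those at FCGRT, LINGO1 and STEAP2 are in introns, and the other 3 are outside protein-coding genes. The last one, chrX:30328865-30328986 (minus), is the repeat upstream of NR0B1, with 11, 7 and 7 repeats parted by single bases, and no FLI1 peak was listed on it.
CCND1: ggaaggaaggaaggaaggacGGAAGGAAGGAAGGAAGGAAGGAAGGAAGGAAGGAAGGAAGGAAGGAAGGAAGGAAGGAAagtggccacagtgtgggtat
FCGRT: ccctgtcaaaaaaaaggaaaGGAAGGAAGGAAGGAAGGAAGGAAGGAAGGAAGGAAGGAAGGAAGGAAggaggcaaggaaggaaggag
LINGO1: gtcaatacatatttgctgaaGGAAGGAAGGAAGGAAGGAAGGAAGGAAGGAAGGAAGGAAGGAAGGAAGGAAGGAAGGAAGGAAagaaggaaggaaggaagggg
POU3F1: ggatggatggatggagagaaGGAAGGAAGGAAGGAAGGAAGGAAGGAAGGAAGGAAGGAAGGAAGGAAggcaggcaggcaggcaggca
CCK: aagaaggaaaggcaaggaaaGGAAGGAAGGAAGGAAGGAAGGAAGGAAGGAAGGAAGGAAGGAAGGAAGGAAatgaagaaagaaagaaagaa
STEAP2: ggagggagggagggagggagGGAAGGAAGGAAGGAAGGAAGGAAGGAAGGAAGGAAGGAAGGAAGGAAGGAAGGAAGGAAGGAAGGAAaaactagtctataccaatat
NR0B1 upstream repeat: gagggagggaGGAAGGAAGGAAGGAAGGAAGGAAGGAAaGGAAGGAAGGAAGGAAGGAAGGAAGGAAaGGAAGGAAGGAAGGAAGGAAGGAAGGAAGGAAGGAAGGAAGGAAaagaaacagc

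The 2 promoter sequences show the other kind of site, a single ETS core in capitals, inside a FLI1 peak that covers a TSS. They are chrX:30327087-30327152 (plus strand), in an exon of NR0B1, and chr7:89783404-89783470 (plus), just upstream of STEAP1. The cores lie off centre, 317 and 173 bp from the midpoints of peaks of 699 and 998 bp. The first is close to the end of its peak. Whether these cores are the bound sites was not tested.
NR0B1 promoter: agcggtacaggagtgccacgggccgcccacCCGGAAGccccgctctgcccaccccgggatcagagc
STEAP1 promoter: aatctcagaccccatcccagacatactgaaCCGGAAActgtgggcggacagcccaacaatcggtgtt

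The next sequence, 80 bases from a peak centre at chr1:2589454-2589533 (plus strand), holds no GGAA run. It is shown because it comes from 1 of the longest rows of FLI1 peaks, described below, and because near-identical copies of the sequence around it occur at 9 other places of the assembly.
TTC34 chain: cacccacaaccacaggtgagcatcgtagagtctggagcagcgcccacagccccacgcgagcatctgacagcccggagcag

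The FLI1 peaks were narrow and spread over most genes. Their median width was 283 bp (quartiles 237 and 377, range 227 to 2668), and 6662 of them (18.4%) had the minimum width of 227 bp. Together they covered 12.4 Mb, or 0.436% of the bases. At least 1 peak lay in the gene body or within 50 kb of it in 15535 of 20090 protein-coding genes (77.3%, interval 76.7 to 77.9). The median gene had 2 peaks (quartiles 1 and 5, mean 3.38, highest 71). A single peak was found at 3181 genes, 2 to 5 at 8203, 10 or more at 1293, 20 or more at 144 and 30 or more at 18. In the gene body itself 8930 genes (44.5%) had a peak, and 5834 (29.0%) had one within 2.5 kb of a transcription start site (TSS). Windows of neighbouring genes overlap, so 45.7% of peaks were counted for at least 2 genes, 35.4% for 1 and 18.9% for none. The 10% shortest windows had a median of 1 peak and 34.9% were empty, and the 10% longest had 3 and 16.6%. In deciles 2 to 8 of window length the median stayed at 2. Deciles 1 and 2 differed little in length (median 102 and 105 kb) but more in empty windows (34.9% and 25.7%).

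The number of FLI1 peaks at a gene differed strongly between regions of the genome. Chromosome 8 held 31.4 FLI1 peaks per Mb and chromosome 3 from 120 Mb onwards 32.7, against a median of 11.8 over the 23 chromosomes. Chromosome 3 before 120 Mb held 2.30, chromosome 10 1.79, chromosome X 1.12, chromosome 16 from 40 Mb 2.48 and chromosome 17 before 20 Mb 2.55. These boundaries were picked from the densities, so the contrast between the regions is a description. For each H3K27ac peak there were 2.16 FLI1 peaks in the high-density regions, 0.243 in the low-density ones and 0.933 elsewhere. A gene had a median of 7 FLI1 peaks in the former, 0 in the low-density regions and 3 elsewhere, and no peak was found at 2.07%, 70.8% and 15.2% of genes. The low-density regions hold 2964 genes, and 46.1% of the 4555 genes without a peak lay there. The high-density regions hold 1157 genes, and 34.0% of the genes with 10 or more peaks and 12 of the 18 with 30 or more lay there. Peaks of the high-density regions were shared with H3K27ac less often (18.3%) than those elsewhere (30.4%) or in the low-density regions (46.5%). Peaks counted as shared when their overlap reached 20% of either one. FLI1 peaks shared in this way are called acetylated below, and over the whole list they were 10302 of 36305. Copy number was not analysed here, and its part in these densities was not tested.

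**Figure D1:**
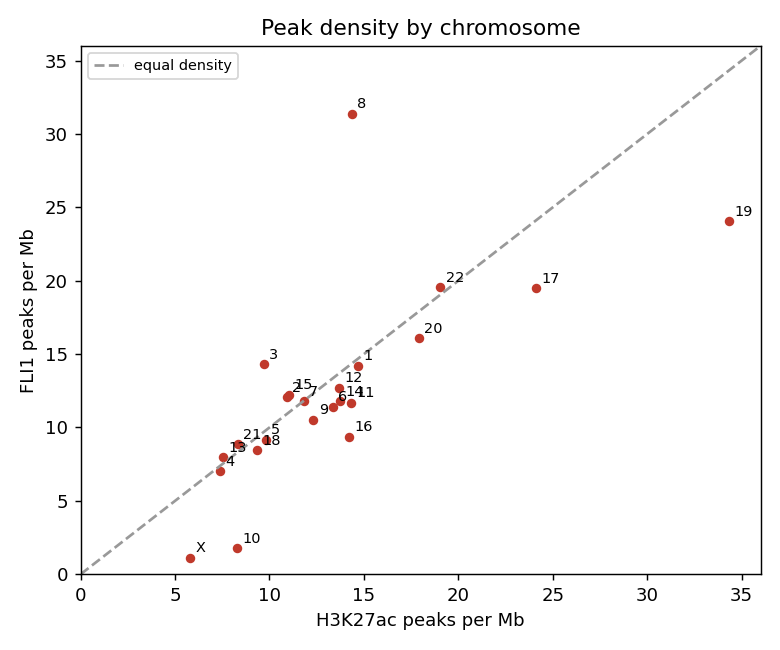
Peaks per Mb of H3K27ac (horizontal axis) and FLI1 (vertical axis) for chromosomes 1 to 22 and X, 1 point per chromosome, with a dashed line of equal density. Chromosome 8 lies far above the line at 31.4 FLI1 peaks per Mb, and chromosomes 10 and X lie far below it at 1.79 and 1.12.

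**Figure D2:**
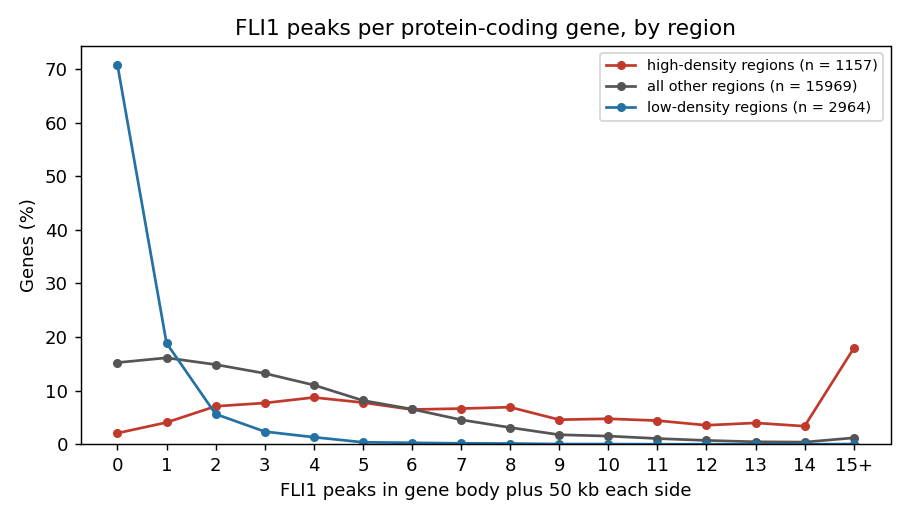
Share of protein-coding genes (vertical axis, %) by number of FLI1 peaks in the body plus 50 kb each side (horizontal axis, 15 or more pooled), for genes of the high-density, low-density and all other regions. The low-density curve stands at 70.8% for 0 peaks, and the high-density curve, with a median of 7, runs on to the right.

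The genes with most FLI1 peaks were mostly long genes of chromosome 8 and distal 3q. TRAPPC9, which encodes a subunit of a vesicle trafficking complex, had 71 peaks in its 829 kb window on chromosome 8 (gene 140739968 to 141468678), of which 63 lay in the body and 7 were acetylated. DLGAP2, a scaffold of the postsynaptic density, had 46 peaks of which 1 was acetylated. At MYOM2, a structural protein of the sarcomere, 29 of 41 peaks were acetylated. XXYLT1, a xylosyltransferase that acts on Notch, followed with 40, and EEFSEC, the elongation factor for selenocysteine, with 37. TOP1MT had 32 peaks, ADGRA2, PDIA5 and CHCHD6 31 each, and PEBP4 30, all in the same 2 regions. Measured against the FLI1 density in the 5 Mb on each side, they differed. DLGAP2 hardly stood out, at 1.02 times the local density, where the median over all genes was 1.05 times. CHCHD6 had 1.60 times, TRAPPC9 1.84 times and MYOM2 4.63 times.

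Away from chromosomes 8, 10, X and distal 3q, the 10 leading loci differed in acetylation and in copied sequence. RXRA, the retinoid X receptor alpha gene on chromosome 9 (137208944 to 137332431), had 31 peaks, 27 of them acetylated, with a peak over a TSS. At SEPTIN9, a cytoskeletal GTPase gene on chromosome 17, 20 of 30 peaks were acetylated. LINGO1, a neuronal membrane protein, had 28 peaks with 13 acetylated. KLHL29 had 30 peaks, TSPAN9 and PDE4DIP 29 each and MICAL3 28, of which 7, 6, 8 and 5 were acetylated and 0, 0, 4 and 2 had a near-identical copy, as defined below. These 7 genes had between 2.63 and 5.65 times the local density. CROCC (38 peaks), TTC34 (34) and NBPF1 (30), all on chromosome 1, differed in their sequence. A near-identical copy of a peak's central 283 bp elsewhere in the assembly (at least 95% identity over at least 90% of the length) was found for 26, 27 and 24 of their peaks, against 0 at RXRA and SEPTIN9. Of their peaks 5, 0 and 4 were acetylated. Reads from such copies cannot always be placed, and the part of this in the 3 counts was not tested.

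Relative to the local density, a different set of genes led, among windows with at least 6 peaks. XG, the gene of a blood group antigen at the edge of the pseudoautosomal region of chromosome X, had 7 peaks, 6 of them acetylated and 2 with a GGAA run, at 29.5 times the local density. TEX43 on chromosome 5 had 12 peaks (27.3 times), 4 of them acetylated, and 2 runs. TMEM187 on chromosome X had 8 peaks (25.3 times), 7 of them acetylated. CCT6A, a chaperonin subunit gene, had 6 (21.4 times), of which 2 were acetylated. BCOR, a corepressor gene on chromosome X, had 6 peaks, 5 acetylated, at 14.7 times. HOXD9, a homeobox gene in the HOXD cluster (chromosome 2, 176987447 to 176989665), had 16 peaks within its window, 12 acetylated, at 13.6 times. All 8 peaks around POU3F2, a neural transcription factor gene, and all 7 around UNC5B, a netrin receptor gene on chromosome 10, were acetylated, at 12.1 and 12.3 times. INAFM2 had 19 peaks with 15 acetylated. RPH3AL, CNDP2 and CFAP300 had 10, 12 and 6 peaks, of which 7, 5 and 2 were acetylated. The same ranking held 3 duplicated loci, in which nearly all peaks had a copy: USP17L18 (13 of 13), NPIPA1 (18 of 20) and FRG2B (6 of 6), with 0, 3 and 1 acetylated. Many of these ratios rest on few peaks in surroundings poor in peaks. XG, TMEM187, BCOR, RPH3AL, UNC5B and FRG2B lie in the low-density regions, with a local density between 1.44 and 4.76 peaks per Mb. At the other named loci it ran from 2.5 (CCT6A) to 14.3 (INAFM2).

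The longest genes without any FLI1 peak lay mostly in low-density regions. DMD, the dystrophin gene on chromosome X, had none in 2342 kb, and no H3K27ac or SSRP1 peak either. CTNNA3, PCDH15 and PRKG1 on chromosome 10, FHIT, RBMS3 and TBC1D5 on chromosome 3 before 120 Mb, and IL1RAPL1 on chromosome X were also free of FLI1, in windows of 1388 to 1951 kb. There the local density was between 0.5 and 4.2 peaks per Mb. KCNIP4 on chromosome 4, a potassium channel partner, was free in 1320 kb beside 2.1 per Mb. On chromosomes other than 10 and X the next were CDH13 on chromosome 16 and CADM2, GRM7, ZNF385D and CNTN4 on chromosome 3. These adhesion, receptor and zinc finger genes also lay in the low-density regions, beside a local density of 0.2 to 4 peaks per Mb. H3K27ac peaks in the windows of all the genes named in this paragraph numbered 0 to 5.

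FLI1 peaks gathered at start sites, though most lay away from them. The 500 bp nearest to a TSS held 10.7% of peaks (10.3 to 10.98), against 1.03% of bases, or 10.4 times their share. At 500 bp to 1 kb the ratio was 3.20, at 10 to 50 kb it was 1.16, at 100 to 500 kb 0.575 and beyond 500 kb 0.314. The median distance was 26.2 kb for FLI1, 3.95 kb for SSRP1 and 9.56 kb for H3K27ac. A TSS lay inside 2420 FLI1 peaks (6.67%), and 7573 peaks (20.9%, 20.4 to 21.3) lay over 100 kb from any, among them 425 beyond 1 Mb. The most remote, on chromosome 4 (180990770 to 180991033), was 2174 kb from the TSS of TENM3. Around the start site FLI1 peaks were nearly even on both sides. Of the 4894 peaks with a midpoint within 1 kb, 50.6% (49.1 to 52.0) lay downstream, and the 250 bp before and after the TSS held 1448 and 1424 peaks. SSRP1 had 1393 and 2447 peaks in the same bins and H3K27ac 2183 and 4150, so both had more downstream.

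**Figure D3:**
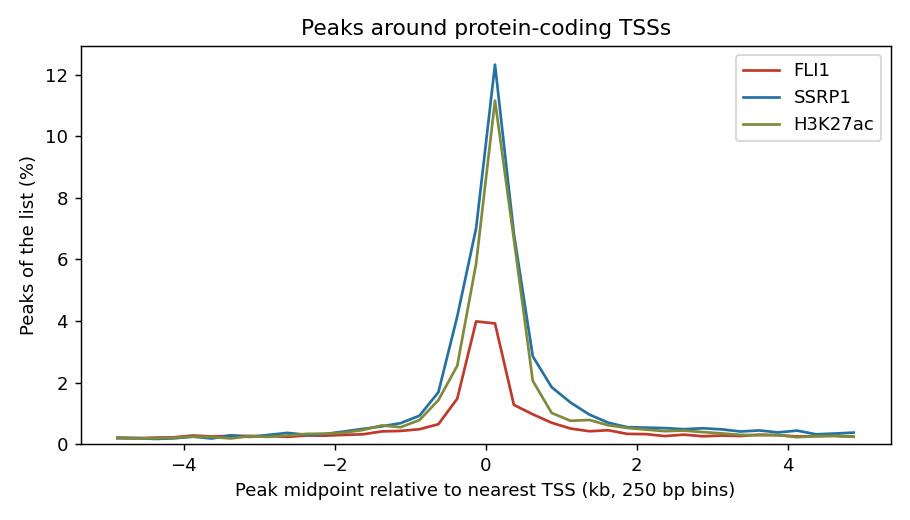
Share of each list's peaks (vertical axis, %) in 250 bp bins of the distance from the nearest protein-coding TSS to the peak midpoint (horizontal axis, kb, negative upstream), for FLI1, SSRP1 and H3K27ac. The FLI1 curve has its 2 highest bins on either side of the TSS (3.99% and 3.92%), while SSRP1 and H3K27ac peak just downstream (12.3% and 11.2%).

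By the location of their midpoint, the peaks fell into classes that differed in acetylation and in sequence. Within 2.5 kb of a TSS lay 17.8% of midpoints (4.36% of bases), in other exons 2.72% (2.25%), in first introns 8.10% (7.93%), in other introns 28.8% (32.5%) and between genes 42.5% (53.0%). H3K27ac was shared by 71.2% of the peaks near a TSS and by 16.6 to 21.99% of those in the other classes. A GGAA run of at least 4 occurred in 0.788% of the peaks near a TSS, 0.405% of those in exons, 2.65% in first introns, 2.40% in other introns and 3.85% between genes. The ETS core (CCGGAAG or CCGGAAA, either strand) was most frequent near a TSS, at 25.1%, followed by exons at 7.80%. It was in 4.49% of peaks in first introns, 4.02% in other introns and 5.52% between genes.

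Motif shares were set against all 283 bp tiles of the same chromosomes, with the central 283 bp of each peak searched on both strands. A run of at least 4 GGAA (or TTCC) was in 2.00% (1.86 to 2.15) of peaks and 0.130% of tiles. Away from TSSs the shares were 2.33% and 0.132%, and near them 0.479% and 0.0993%. The ETS core was in 7.19% (6.92 to 7.46) of peaks and 1.16% of tiles. Near TSSs the shares were 21.3% and 3.41%, and away from them 4.13% and 1.06%. Some cores lie within a run's edge, and the motifs were counted independently. TGANTCA, which allows any middle base and so takes in more than the motif of AP-1 factors, was less frequent in peaks than in tiles. The shares were 6.43% (6.18 to 6.69) and 8.80%. The AP-1 motif itself was not counted apart, and the part of base composition was not tested.

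Read from the genome, longer GGAA runs lay under a FLI1 peak more often, up to 20 repeats. Of 16275 runs of at least 4 repeats, 1464 (8.995%, 8.56 to 9.45) were under a FLI1 peak. The share was 3.50% for 4 repeats, 6.45% for 5 to 8, 16.3% for 9 to 11, 24.96% (22.99 to 27.01) for 12 to 15 and 38.4% (33.8 to 43.0) for 16 to 20. Only 11 runs were longer, with 4 of them under a peak. For 16 to 20 repeats the share was 42.3% in the high-density regions, 42.1% elsewhere and 20.5% in the low-density regions, so the regional contrast was far smaller than that of peak density. Reads in long repeats are hard to place, and no value here bears on runs that reads could not reach.

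Among the 32 listed genes known as direct targets of EWS-FLI1, often through such repeats, all 32 had a FLI1 peak in their window, where 77.3% of all genes had one. The median was 5 peaks and 2.88 times the local density, against 2 peaks and 1.05 times over all genes. A peak lay within 2.5 kb of a TSS at 19 of them (59.4%, all genes 29.0%), a GGAA run lay in a peak of 14 (all genes 5.75%), and 27 had an acetylated peak (all genes 51.1%). Since the list was drawn up with earlier results on these libraries known, these counts are no independent support. LINGO1 had 28 peaks, POU3F1, a POU-domain factor gene, 23 with 20 acetylated, and CCND1, the cyclin D1 gene, 16 with 14 acetylated. PRKCB, a protein kinase C gene, had 15, and HOXD13 14. NKX2-2, a homeobox factor needed by Ewing cells, had 11 peaks with 1 run of 9 repeats. CCK, which encodes cholecystokinin and lies in the sparse part of chromosome 3, had 3 peaks, all acetylated, and 18.5 times the local density. NR0B1, an orphan receptor gene, had 1 peak, of 699 bp over its TSS (30326454 to 30327152), with the ETS core printed above. CAV1 and EGR2 also had 1 each. VRK1, DKK2 and IL1RAP lay below their local density, at 0.527, 0.570 and 0.365 times.

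Among the peaks whose runs are printed above, the widest were at FCGRT (2668 bp, 5 summits), LINGO1 (2503 bp, 4 summits), POU3F1 (1471 bp, 3 summits) and CCND1 (1117 bp, 2 summits). The runs at LINGO1 and CCND1 lay 49 and 67 bp from the peak's midpoint, the one at POU3F1 152 bp, and the one at FCGRT 893 bp. The peaks on the runs near CCK and in STEAP2 were narrower, at 747 and 460 bp, with 1 summit each. STEAP1 and STEAP2 are neighbours, so both of their windows hold the same run.

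Of 27 matched markers of other cell types, 21 (77.8%) had a FLI1 peak in the window, close to the 77.3% of all genes, and the median was 2. Their median ratio to the local density was 1.36, against 1.05 over all genes. FLI1 lay within 2.5 kb of a TSS at 7 (25.9%, all genes 29.0%), and 6 of the 27 had an acetylated peak (all genes 51.1%). SFTPC, a lung surfactant gene that lies on chromosome 8, had 18 peaks, and KRT8, an epithelial keratin gene, 11 with 7 acetylated. CDH5, the endothelial cadherin gene, had 1 peak on a run of 15 repeats that was not acetylated. The B cell gene MS4A1, the liver genes ALB and TTR, the islet gene GCG, the epithelial gene CDH1 and the melanocyte gene TYR had none. These are peaks, not expression, so they do not test the identity of the cells.

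FLI1 peaks lay close together. Another FLI1 peak began within 1 kb of 13.8% of peaks (13.4 to 14.2), where 2.82% of bases lay that close to a peak. Within 10 kb the shares were 49.6% (49.1 to 50.1) and 18.4%, and within 100 kb 93.1% and 63.6%. The median gap was 23.3 kb and the mean 80.8 kb. SSRP1 and H3K27ac peaks had a neighbour of their own list within 10 kb in 58.9% and 75.5% of cases, where 9.05% and 13.6% of bases lay that close. Both lists stood further above their share of bases than FLI1. In the high-density regions 63.1% of FLI1 peaks had such a neighbour, in the low-density regions 27.5%. The most isolated peak, near RTL3 on chromosome X (77898652 to 77899013), lay 3.93 Mb from any other, and those at KAT2B and NKIRAS1 on chromosome 3 were 3.91 Mb apart, each over or near a TSS and acetylated. The fifth, in an intron of GRID1 on chromosome 10, stood on a run of 15 repeats, 3.16 Mb from the next.

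Joined at gaps of at most 10 kb, the peaks formed 24606 chains, of which 18286 were single peaks and 6320 had 2 or more. Acetylation was more frequent in longer chains up to 9 peaks, and copied sequence was most frequent in the longest ones. H3K27ac was shared by 19.5% of single peaks, 31.7% of peaks in pairs, 40.1% in chains of 3 to 5, 50.2% in chains of 6 to 9, 43.6% in chains of 10 to 14 and 31.5% in the 22 chains of 15 or more. A near-identical copy was found for 5.39%, 6.31%, 7.28%, 13.1%, 25.7% and 60.5% of them. Over all peaks it was found for 2726 (7.51%, 7.24 to 7.78), against 5.64% (5.19 to 6.11) of 10024 evenly spaced tiles. It was found for 3.72% of acetylated peaks and 9.01% of the others, and for 1.02% of peaks with a GGAA run. How reads from such copies were placed was not tested.

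**Figure D4:**
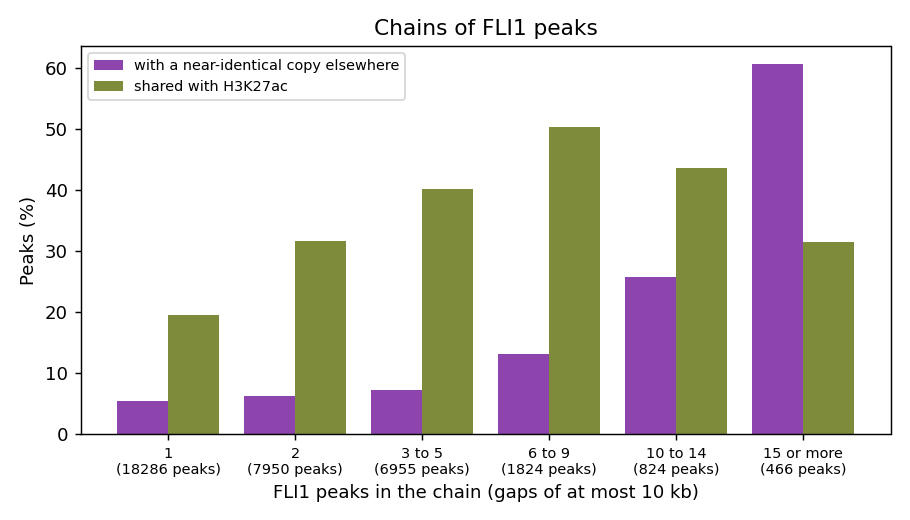
Share of FLI1 peaks (vertical axis, %) with a near-identical copy elsewhere in the assembly and shared with H3K27ac, by number of peaks in the chain (horizontal axis, number of peaks in brackets). The copy bars go from 5.39% for single peaks to 60.5% in chains of 15 or more, and the H3K27ac bars are highest, at 50.2%, for chains of 6 to 9.

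Of the 10 longest chains, 7 consisted mostly of copied sequence and 6 held no acetylated peak. The longest, on chromosome 8 (86726537 to 86840879), had 46 peaks in 114 kb, all 46 with copies and none acetylated, 151 kb from the TSS of REXO1L1. Next came 32 peaks in TTC34 (chromosome 1, 2583623 to 2629373), 27 of them with copies, and 27 peaks 19.5 kb from OR2Z1, an olfactory receptor gene on chromosome 19, all with copies. The printed 80-base stretch comes from the TTC34 row. A chain of 27 peaks on chromosome 2 (91759673 to 91820818) had copies for 6 and no acetylated peak. Others lay near ZNF565 (chromosome 19, 22 peaks, all with copies), near FAM246A (chromosome 22, 22, of which 21), over NBPF1 (22, of which 17) and near CWH43 on chromosome 4 (21, of which 20, with 13 acetylated). The remaining pair were on chromosome 8: 22 peaks 148 kb from MYOM2, 4 with copies, and 22 peaks 72.7 kb from MYC, the proto-oncogene (128822660 to 128911333), none with copies, 11 acetylated and 2 with a run.

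The longest chains without any copy, a set chosen after these values were seen, were acetylated in most of their peaks. The 10 longest held 158 peaks, of which 119 were acetylated and 6 had a run. Of all peaks without a copy, 29.5% were acetylated. After the chain near MYC came 18 peaks across SAMD11 and NOC2L on chromosome 1 (839279 to 880932), all 18 acetylated. Across ZNF703 and ERLIN2 on chromosome 8 (37548915 to 37594368) 13 of 18 were acetylated, and 2 had a run. The CCND1 and LTO1 chain on chromosome 11 (69428420 to 69485566) had 15 peaks, 14 acetylated, and that over PADI1 15, of which 10. Near OLFM1, a neuronal secreted glycoprotein, 12 of 15 were acetylated, and 40.3 kb from ACOT11 11 of 14. The other 3 lay on chromosome 8, a pair of them over 1 Mb from SPIDR and 1 in ARHGEF10.

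Several summits were listed in 1505 peaks (4.15%, 3.94 to 4.36): 2 in 1339, 3 in 137, 4 in 24, 5 in 4 and 6 in 1. These were wider, with a median of 717 bp against 278 bp for peaks with 1 summit. They lay within 2.5 kb of a TSS in 32.6% of cases (17.6% with 1 summit), were shared with H3K27ac in 71.8% (26.5%) and with SSRP1 in 59.6% (15.4%), held a GGAA run in 14.8% (2.17%) and an ETS core in 24.7% (7.86%). Part of this went with width. Among peaks of 401 to 600 bp, acetylation was 58.6% with several summits and 48.99% with 1, and the run 4.52% and 6.05%. From 601 to 900 bp, acetylation was 72.8% with several summits and 73.7% with 1, and the run 12.2% and 9.54%. Above 900 bp the run was in 29.3% and 16.1%. The peak with most summits, 6 in 2267 bp, lay on chromosome 5 (34191448 to 34193714) and had copies at 12 other places. Those with 5 were at FCGRT, in CHAT, the choline acetyltransferase gene (run of 17), near OLFM1 (run of 12) and near NUPR2, the last with copies at 3 places and no H3K27ac. Those near TAFA5, GFRA2, EIF2B2 and in MDFI had 4, as did the one in LINGO1. The 10 widest peaks, from 1930 to 2668 bp, added those near MYL10 and STAR, on runs of 16 and 13.

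Gene families differed in how many FLI1 peaks their windows held beside the 5 Mb on each side. Of 84 families with at least 8 genes, 57 were above their local density, with a median ratio of 1.23, and none was free of peaks. The flanks include sequence between genes: all gene windows together held 15.7 peaks per Mb, against 11.96 over the chromosomes as a whole. A ratio somewhat above 1 is therefore not particular to a family, and 52 of the 84 were above the density of all gene windows. Members of a family often share a locus, so the number of loci is given beside the genes.

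The 39 HOX genes, which pattern the body axis, held 64 peaks in 4 loci at 3.28 times the local density (5.31 times with gene bodies alone). All 39 had a peak in the window (all genes 77.3%), but their windows overlap within these 4 loci. The 12 ZIC and GLI zinc finger genes in 10 loci had 2.79 times (91 peaks). The 9 PAX genes in 9 loci and the 8 SMAD genes in 8, transducers of TGF-beta signals, had 2.70 and 2.47 times (59 peaks each). The 8 E2F genes in 8 loci, regulators of the cell cycle, had 2.46 times (37 peaks), or 1.63 times with gene bodies alone. The 18 cyclin genes in 18 loci had 1.94 times (72 peaks), and the 84 cytoplasmic ribosomal protein genes in 81 loci 1.72 times (304 peaks). The 12 protocadherin genes outside the clusters, in 11 loci, also had 1.72 times, but with 21 peaks beside a local density of 2.2 per Mb. They had 0.241 times the density of all gene windows, and 7 of the 12 had no peak (all genes 22.7%). H3K27ac was also above its local density in these 8 families, from 1.13 times at these protocadherins to 3.50 times at the E2F genes.

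In the remaining pair of high families H3K27ac was below its local density. The 26 USP17-like genes, deubiquitinase genes in 4 loci, held 36 peaks at 2.38 times the local density, with H3K27ac at 0.133 times. Of these peaks 34 had a near-identical copy. Without such peaks the ratio was 0.182, with gene bodies alone 15.2 and without chromosomes 8, 10, X and distal 3q 11.2. The 17 type I interferon genes rested on 8 peaks in 2 loci (2.43 times, H3K27ac 0.963 times), and none of these peaks lay in a gene body. They had 0.837 times the density of all gene windows.

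The lowest ratio was that of the 30 late cornified envelope and SPRR genes, which build the barrier of the epidermis. They held 1 peak in 0.740 Mb of a single locus, 0.058 times a local density of 23.3 per Mb, and no H3K27ac peak. The 17 LILR and KIR immune receptor genes in 2 loci had 4 peaks (0.334 times, or 0.512 with gene bodies alone), none of them at or above the median peak width. The 24 PRAME family genes in 5 loci had 13 peaks (0.367 times), 9 of them with copies. Their ratio was 0.141 without copied peaks and 0.630 with gene bodies alone. The 19 HLA genes in 6 loci had 14 peaks (0.448 times). The 94 keratin-associated protein genes in 6 loci had 17 (0.423 times), although gene bodies alone gave 1.56 times. The 20 contactin and neurexin genes in 19 loci, cell adhesion molecules, had 64 peaks in 13.7 Mb (0.420 times). The 19 GABA receptor genes in 14 loci had 14 (0.446 times, or 0.632 without copied peaks).

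The 412 olfactory receptor genes in 70 loci had 156 peaks at 0.563 times, and 66 of the 156 had copies. Without copied peaks the ratio was 0.354, with flanks of 10 kb 0.291 and with gene bodies alone 0.238. No peak was found at 286 of these genes (69.4%, all genes 22.7%). The 19 netrin, slit and receptor genes in 18 loci had 0.579 times. The 22 CEACAM and PSG genes in 7 loci had 0.581 times, and 1.04 times the density of all gene windows. H3K27ac was below its local density in each of these 10 families, between 0 and 0.838 times.

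**Figure D5:**
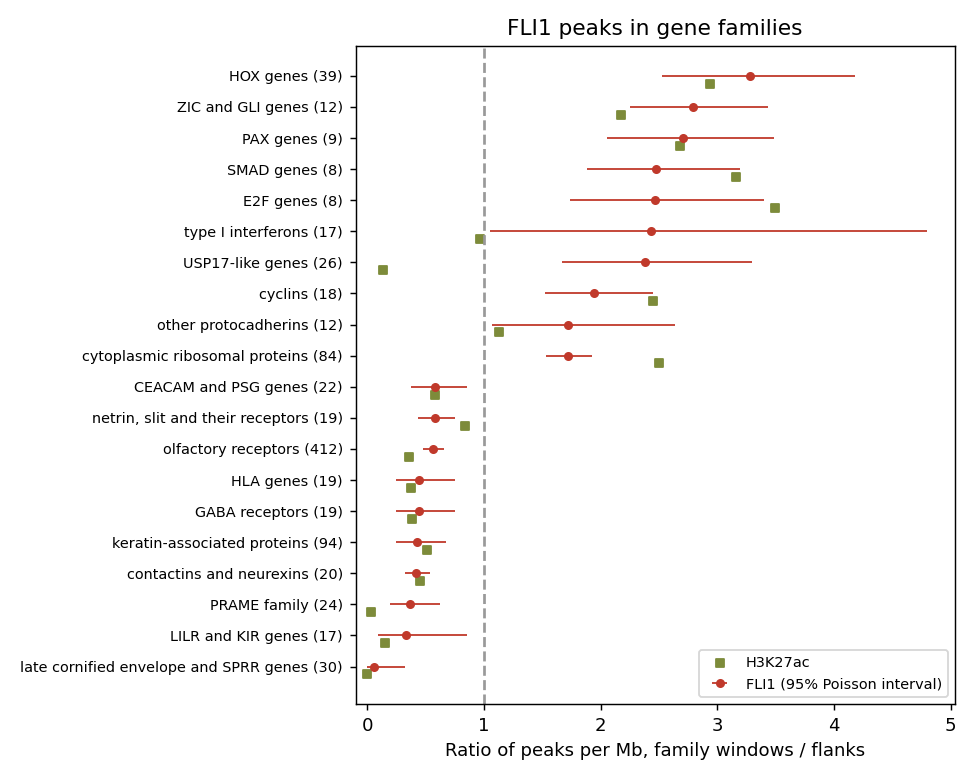
FLI1 peaks per Mb in the windows of a family divided by those in the 5 Mb on each side (horizontal axis, red points with 95% Poisson intervals of the peak count, counting error only) for the 10 families with the highest and the 10 with the lowest ratio, with the number of genes in brackets. Green squares give the same ratio for H3K27ac, which lies at 0.133 for the USP17-like genes and at 2.94 for the HOX genes, and the dashed line marks the local density.

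Across genes, the number of FLI1 peaks per window had a Spearman correlation of 0.566 with that of H3K27ac peaks and 0.654 with that of SSRP1 peaks (20090 genes). Genes are not independent, their windows overlap and differ in length, and the lists share 1 input, so these are descriptions.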

How the data were processed

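ChIP-seq of FLI1 in SK-N-MC cells was analysed from the peak list the authors deposited, beside those of SSRP1 and H3K27ac. Per the series' design text in the labels, chromatin was cut with micrococcal nuclease and sonicated, reads were aligned to hg19 with Bowtie2 at default settings, and MACS2 called peaks against input at a q-value threshold of 0.05. MACS2 was version 2.2.7.1, per the submitters' processing notes. Each deposited list gives start and end of a peak and no height, fold or q-value. Filtering of duplicate or multiply mapped reads is not given in the sources at hand, and read depth was not analysed here, so the precision given is that of counts of peaks.

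Unique intervals were kept: 38324 lines gave 36539 intervals and 36305 peaks on chromosomes 1 to 22 and X. Coordinates are 1-based. Genes were the 20090 protein-coding symbols of GENCODE release 44 mapped to GRCh37, with all 56173 TSSs of basic transcripts. A gene's peaks were those that met its body plus 50 kb on each side. Local density was taken over 5 Mb on each side of the window. PECAM1 was not matched. Some items that the naming rule reached are not reported here. Copies of each peak's central 283 bp were sought with minimap2 2.31, beside every 1000th tile of the genome. Genes, chains, peaks and families were named by rank on these measures, passing over overlapping windows: the 15 with most peaks, the 10 away from dense and bare chromosomes, the 15 highest local ratios, the longest without a peak, the 10 longest chains, the 10 widest peaks and those with most summits, and 10 families at each end. Members, lists, families and regions were chosen with earlier results of these data known.

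Groups came from sample titles. No test was run, since each target has 1 library. Alternatives were other window flanks, TSS distances, gaps and run lengths, wider peaks only, and fewer chromosomes. Counting functions were tested on simulated intervals. The software was Python 3.11.15 with pysam 0.24.0, scipy 1.17.1, matplotlib 3.10.9, pandas 2.3.3 and numpy 2.4.6.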

Additional observations from a re-analysis of the deposited data

Results flagged for a closer look

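A FLI1 signal also lay in the 234 intervals on other sequence names, which no comparison above used. Of these, 226 were on contigs without a chromosome and 8 on chromosome Y. A contig of 162 kb held 43 FLI1 intervals, beside 19 of SSRP1 and 24 of H3K27ac. On the next, of 138 kb, the counts were 21, 12 and 4. No control sample has a list of its own, and how reads were placed on these contigs was not tested.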

How the results depend on the processing

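The size of the window set the share of genes with a FLI1 peak (77.3%): gene bodies alone gave 44.5%, flanks of 10 kb 59.4% and of 100 kb 84.4%, with medians of 0, 1 and 4 peaks per gene in place of 2. With peaks at or above the median width alone, the share of genes was 62.8% and the median 1. Those peaks lay within 2.5 kb of a TSS in 23.5% of cases (18.2% for all), had a neighbour within 10 kb in 40.2% (49.6%), several summits in 8.24% (4.15%), a GGAA run in 4.62% (2.69%) and an ETS core in 13.2% (8.56%). Without chromosomes 8, 10 and X and chromosome 3 from 120 Mb, 80.8% of genes had a peak and the median was 3, while the TSS share was 19.8%, the neighbour share 46.6% and the ETS share 9.10%. Distances of 1 and 5 kb gave a TSS share of 14.2% and 23.4%, and 1 TSS per gene 14.8%. Gaps of 5 and 20 kb gave a neighbour share of 35.2% and 65.6%. Runs of at least 6 were in 2.51% of peaks. Without peaks that have a near-identical copy, an alternative chosen after the data were seen, the values were 75.05% of genes, 18.8% at a TSS, 47.9% with a neighbour, 3.94% with several summits and 2.88% with a run. Each of these shares lay outside the counting interval of the main share. The intervals of the main and the other share still overlapped for runs of at least 6 and for the ETS share without those chromosomes. They also overlapped for the TSS, summit and run shares without copied peaks. The settings have peaks in common, and whether these smaller moves exceed counting error was not tested. The cause of the moves was not tested either. The number of families above the density of all gene windows (52 of 84) was 45 to 56 of 84 under the other settings. Without those chromosomes it was 49 of 81, since 3 families, the E2F genes among them, had fewer than 8 genes left. Of the 20 families named, gene bodies alone moved the type I interferons (0) and the keratin-associated proteins (1.56) across the local density, and leaving out copied peaks moved the USP17-like genes (0.182). No paired analysis was possible because each target has 1 library. The lists give no peak strength, so weak and strong peaks count alike.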
